A study of Danio rerio with 9 samples.

Results

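The SoxB genes encode transcription factors with an HMG-box DNA-binding domain that are known for their work in neural progenitors. The members were the rows of the deposited gene table for the names sox1a, sox1b, sox2, sox3, sox14, sox19a, sox19b, sox21a and sox21b, taken by name and not by any measured value. These 9 names led to 10 of the 32520 rows of the table. RNA was sequenced from the heads of Tubingen zebrafish at the long-pec stage in 3 groups of 3 samples, each sample a pool of 5 heads. Conventionally raised (CV) larvae were left unsterilized, germ-free (GF) larvae were sterilized during gastrulation with gentamicin and hypochlorite, and zebrafish metabolite (ZM) larvae were sterilized in the same way and then given a filter-sterilized extract of adult zebrafish intestine in their medium. The GF and ZM larvae thus shared the sterilization that CV larvae did not receive, and no group sterilized and then given buffer alone was analysed here. The values are FPKM, fragment counts scaled to the length of the transcript and to the mapped fragments of the sample, so levels can be compared between genes.

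SoxB1 proteins, which are Sox1, Sox2, Sox3 and the fish Sox19 proteins, mostly activate transcription and are known to keep neural progenitors undifferentiated and dividing. SoxB2 proteins, which are Sox14 and Sox21, act mostly as repressors, and in chick embryos Sox21 opposes the B1 proteins and promotes neuronal differentiation. At the stage sampled, the zebrafish brain and retina hold dividing progenitors beside young neurons, and SoxB genes are also used in the lens, the inner ear and the lateral line.

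Of the 10 rows, 9 reached the minimum for testing, an average over the 9 samples of 1 FPKM or more. The name table lists 2 rows as SOX1 and does not say which is sox1a and which sox1b, so they are called here by their IDs. The row called sox21b is listed as SOX21, and it took that name because sox21a was listed separately. Besides the row used as sox14 (ENSDARG00000070929), another row is listed as SOX14 (ENSDARG00000111969), and its FPKM was at most 0.0429 in any sample, so it was not tested. Paralogs with a similar HMG box could share reads.

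Tests used limma on log2(FPKM + 1) over the 15904 genes that reached this minimum, with all 9 samples in a single model and Benjamini-Hochberg adjustment over all genes tested. Adding 1 before the logarithm shrinks the fold changes of weakly expressed genes. By its whole profile, CV 2 was closer to GF 1 and GF 2 (root mean square log2 distances of 0.317 and 0.337) than to CV 1 and CV 3 (0.518 and 0.612), so results that rest on the CV samples are also given without it. The other CV samples were scattered too. CV 1 was closer to ZM 2 (0.492) than to CV 2 (0.518) or CV 3 (0.571). CV 3 lay far from every sample, with CV 1 the nearest at 0.571. The summed FPKM of a sample ranged from 587431 to 705494. The heads expressed regional brain markers, with 9 of 10 rows listed for them past that minimum and a summed FPKM over all 10 between 101.4 and 180.8, while 8 rows of tail and posterior trunk markers summed to between 5.13 and 9.45. Among the brain markers the hindbrain gene EGR2 had a mean FPKM of at most 0.194 in any group.

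In CV heads, sox3 (87.7 ± 29.5, SD, n = 3) and sox19a (74.1 ± 10.0, SD, n = 3) had the highest mean FPKM of the family, and their samples overlapped. Next came sox2 at 43.6 ± 16.6 (SD, n = 3), with no sample overlapping either neighbor in this order. The ENSDARG00000069866 row of SOX1, sox14, sox21a, the ENSDARG00000008131 row of SOX1, sox19b and sox21b followed, between 21.0 and 10.7, and each overlapped the next. In GF heads the order of the first 5 was sox3, sox19a, sox2, SOX1 (ENSDARG00000069866) and sox21a, each separate from the next in all 3 samples, and sox14 was at place 7 with 5.97 ± 1.57 (SD, n = 3) where it had been at place 5 in CV. The family is well expressed: by their mean over the 9 samples, the 9 rows lay between the 51.0th and the 94.7th percentile of the genes tested.

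**Figure D1:**
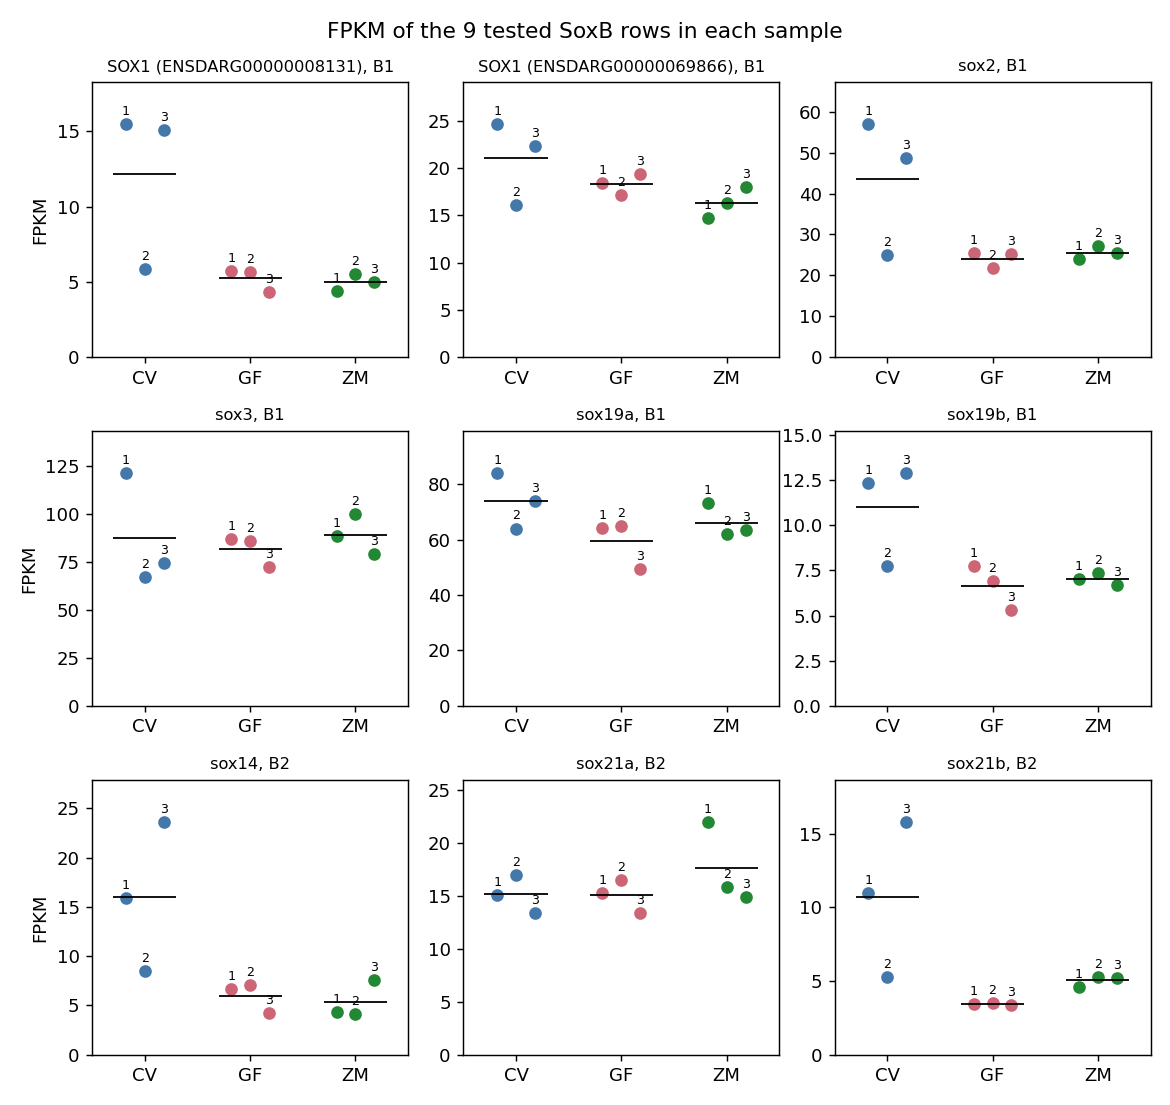
FPKM (vertical axis, linear from 0) of the 9 tested SoxB rows in the CV, GF and ZM samples. Each point is a sample with its replicate number, and the line is the group mean. In sox2, sox14, sox19b, sox21b and the ENSDARG00000008131 row of SOX1, CV 1 and CV 3 sit far above all other samples, while CV 2 sits close to the GF and ZM samples.

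Among the 6 SoxB1 rows, the falls from CV to GF were widest on the log2 scale for the ENSDARG00000008131 row of SOX1, sox2 and sox19b. The difference was narrowest for sox3, whose direction depended on scaling. The FPKM of sox2 (ENSDARG00000070913), a central factor of neural stem cells, was 57.0, 25.0, 48.7 for CV replicates 1 to 3, then 25.4, 21.7, 25.1 for GF and 23.9, 27.2, 25.4 for ZM in the same order. CV 1 and CV 3 were high, and CV 2 lay among the GF and ZM samples, so the groups overlapped. GF differed from CV by -0.75 on the log2 scale (standard error 0.25, limma adjusted p = 0.106). The mean in GF was 55.3% of the mean in CV.

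Sox1 proteins are made in progenitors, in the lens and in some interneurons. SOX1 (ENSDARG00000008131) had 15.5, 5.83 and 15.102 FPKM in CV replicates 1 to 3, 5.75, 5.66 and 4.33 in GF and 4.37, 5.49 and 4.996 in ZM. All 3 GF and all 3 ZM samples lay below all 3 CV samples, although CV 2 was only just above GF 1. GF differed from CV by -0.97 on the log2 scale (standard error 0.30, limma adjusted p = 0.0868). The other SOX1 row (ENSDARG00000069866) was flatter, at 24.6, 16.1 and 22.4 FPKM in CV, 18.4, 17.1 and 19.4 in GF and 14.7, 16.3 and 18.0 in ZM. Here CV 2 lay below every GF sample, and the GF minus CV difference in log2 was -0.17 (standard error 0.17, limma adjusted p = 0.594).

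The fish Sox19 genes differed from each other in level and in pattern. Sox19b (ENSDARG00000040266) is best known as a maternal factor that helps start zygotic transcription in the zebrafish embryo, and it had 12.4, 7.76 and 12.9 FPKM in CV, 7.73, 6.91 and 5.30 in GF and 7.02, 7.38 and 6.67 in ZM. The CV samples lay above all others, again with CV 2 nearly level with GF 1, and the GF minus CV difference in log2 was -0.63 (standard error 0.20, limma adjusted p = 0.0944). Sox19a (ENSDARG00000010770), a gene of the early neural plate and later brain, had 84.1, 64.1 and 74.0 FPKM in CV, 64.1, 65.1 and 49.5 in GF and 73.4, 61.9 and 63.4 in ZM. Its groups overlapped, and the GF minus CV difference in log2 was -0.31 (standard error 0.15, limma adjusted p = 0.260).

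Sox3 (ENSDARG00000053569), which acts in neural progenitors and in the ear and other placodes, had the highest mean level of the family in each group. It had 121.4, 67.0 and 74.6 FPKM in CV, 87.1, 85.8 and 72.6 in GF and 88.5, 100.01 and 79.0 in ZM. CV 1 was the highest of the 9 samples and CV 2 the lowest, so the CV samples enclosed all others. On the log2 scale GF minus CV was -0.05, with a 95% interval from -0.51 to 0.41 (limma adjusted p = 0.910), and its sign turned under median-of-ratios rescaling (0.0141) and without CV replicate 1 (0.20).

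The largest log2 fold changes of the family in GF against CV were those of the SoxB2 genes sox21b and sox14. Sox14 marks groups of GABAergic neurons and interneurons in vertebrate brains. Its row had 15.9, 8.51 and 23.6 FPKM in CV, 6.66, 7.08 and 4.18 in GF and 4.30, 4.13 and 7.55 in ZM. All CV samples lay above all GF and ZM samples, and the GF minus CV difference in log2 was -1.21 (standard error 0.34, limma adjusted p = 0.0666).

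For sox21b (ENSDARG00000008540) the FPKM was 10.98, 5.29 and 15.8 in CV, 3.47, 3.53 and 3.38 in GF and 4.63, 5.26 and 5.23 in ZM. The CV samples were far apart while the GF samples were almost level, and the 3 groups did not overlap, although CV 2 was only just above ZM 2. GF differed from CV by -1.28 on the log2 scale (standard error 0.29, limma adjusted p = 0.0531, a value shared with 589 other genes). Its paralog sox21a (ENSDARG00000031664) had a higher mean than sox21b in each group and was flat between CV and GF, with 15.0, 17.0 and 13.4 FPKM in CV, 15.3, 16.4 and 13.4 in GF and 22.0, 15.8 and 14.9 in ZM. ZM 1 was the highest sample of sox21a and the groups overlapped. The log2 fold change of sox21a in GF against CV was -0.01, with a 95% interval from -0.39 to 0.37 (limma adjusted p = 0.983).

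In GF against CV, 0 of the 9 rows were called at an adjusted p under 0.05 in limma, where 0.00629% of all genes tested were called. At an unadjusted p under 0.05, 5 of the 9 were lower (SOX1 ENSDARG00000008131, sox2, sox19b, sox14 and sox21b) and 0 were higher, against 18.0% of all genes lower and 4.70% higher. Among all genes this split between lower and higher depended on scaling, with 2858 lower and 747 higher here but 2216 lower and 1862 higher after quantile normalization. The 3 GF values were all under the lowest CV value for 4 of the 9 rows, against 17.7% of all genes, and all over the highest CV value for 0 rows, against 9.14%. At an adjusted p under 0.1, a limit chosen with the values known, 4 rows were lower, against 11.6% of all genes. The median log2 fold change was -0.63 over the 9 rows and 0.02 over all genes tested. In whole heads, fewer progenitor cells and less SoxB RNA per cell cannot be told apart.

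**Figure D2:**
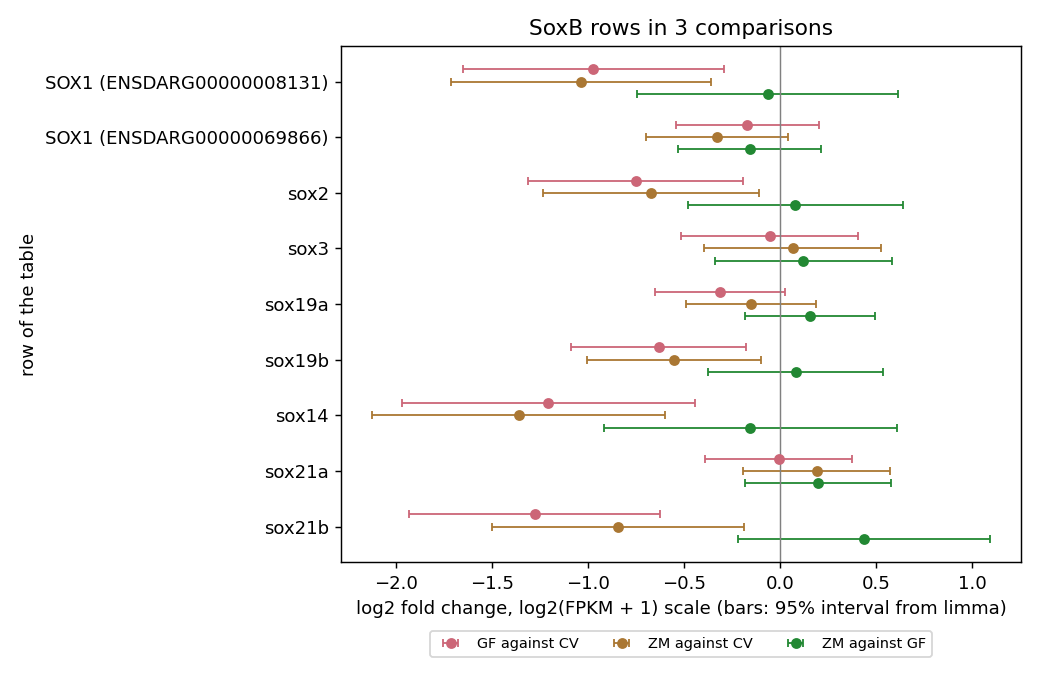
Log2 fold changes (horizontal axis, log2(FPKM + 1) scale) of the 9 tested SoxB rows in 3 comparisons, with 95% intervals from limma. Each interval uses the spread of its row within all groups, CV included. The points of GF against CV and ZM against CV lie on the same side of 0 and close together for sox14 (-1.21 and -1.36) and further apart for sox21b (-1.28 and -0.84), while the intervals of ZM against GF all include 0.

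These values depended on CV 2. In CV 2 the FPKM was 38.1% of the mean of CV 1 and CV 3 for SOX1 (ENSDARG00000008131), 39.5% for sox21b, 43.1% for sox14, 47.3% for sox2 and 61.5% for sox19b, but 81.1% for sox19a and 119.6% for sox21a. On the log2(FPKM + 1) scale over the 9 rows, CV 2 was at a root mean square distance of 0.151 from ZM 3 and 0.230 from GF 2, against 0.824 from CV 1 and 0.889 from CV 3. CV 2 was singled out after it was seen to lie near GF samples, so leaving it out favors wider differences and smaller p-values. The values without it are a description and not a separate test. Without CV replicate 2, 5 rows were called lower in GF at an adjusted p under 0.05, against 13.9% of all genes, and they were the 5 rows named above. Their log2 fold changes without it were -1.67 for sox21b (limma adjusted p = 0.00105), -1.58 for sox14 (adjusted p = 0.00792), -1.39 for SOX1 (ENSDARG00000008131) (adjusted p = 0.00138), -1.10 for sox2 (adjusted p = 0.00141) and -0.85 for sox19b (adjusted p = 0.00981), all from limma. Without CV replicate 1 or CV replicate 3, 0 rows were called, and 4 had an unadjusted p under 0.05, each lower in GF, against 19.5% of all genes without CV replicate 1 and 12.4% without CV replicate 3. The spread within CV was wide for these genes, with a median standard deviation of log2(FPKM + 1) over the 9 rows of 0.452 in CV, 0.144 in GF and 0.135 in ZM, against 0.270, 0.178 and 0.187 over all genes tested.

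The ZM group addressed whether gut metabolites alter expression in sterilized larvae, and the SoxB rows had log2 differences between ZM and GF of at most 0.44 in size. In ZM against GF, 0 of the 9 rows were called at an adjusted p under 0.1 in limma, where 0.00629% of all genes were called. At an unadjusted p under 0.05, 0 rows were lower, against 3.16% of all genes, and 0 were higher, against 2.55%. A single row, sox21b, was higher at that p in a fit of only the GF and ZM samples (limma adjusted p = 0.456, against 6.24% of all genes) and without CV replicate 2 (limma adjusted p = 0.516, against 5.37%). The 3 ZM values were all over the highest GF value for 1 row, sox21b, against 10.4% of all genes, and all under the lowest for 0 rows, against 6.17%. The log2 fold change of sox21b was 0.44, with a 95% interval from -0.22 to 1.09 (limma adjusted p = 0.873), and its mean in ZM was 47.1% of that in CV. The interval was -0.48 to 0.64 around 0.08 for sox2, -0.34 to 0.58 around 0.12 for sox3 and -0.92 to 0.61 around -0.15 for sox14. The median log2 fold change was 0.08 over the 9 rows and 0.00396 over all genes.

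In ZM against CV, which uses the same CV samples as GF against CV, 0 of the 9 rows were called at an adjusted p under 0.05 in limma, where 0% of all genes were called. At an unadjusted p under 0.05, 5 of the 9 rows were lower, against 16.5% of all genes, and 0 were higher, against 6.94%. They were SOX1 (ENSDARG00000008131), sox2, sox19b, sox14 and sox21b, with log2 fold changes between -1.36 for sox14 and -0.55 for sox19b. The ZM values were all under the lowest CV value for 4 of the 9 rows, against 13.3% of all genes, and all over the highest for 0 rows, against 8.51%. Without CV replicate 2, 6 rows were called lower at an adjusted p under 0.05, against 12.2% of all genes, the other SOX1 row (ENSDARG00000069866) being the addition with a log2 fold change of -0.50 (limma adjusted p = 0.0372). The choice of CV 2 as the sample left out favors such calls here as well. Without CV replicate 1 or CV replicate 3, 2 rows were lower at an unadjusted p under 0.05, against 17.5% and 7.16% of all genes, and after median-of-ratios rescaling 3 were, against 13.2%.

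The share of each row in the family's summed FPKM within a sample does not depend on scaling between samples, while the sum itself does. Both are given as a description. The shares within a sample are tied together, since a fall in some rows raises the share of the rest. How often such shares separate the groups in other gene families was not computed. The summed FPKM of the 9 rows was 356.9, 216.5 and 300.4 in CV replicates 1, 2 and 3, and it ran from 197.2 to 234.0 over the GF samples and from 225.1 to 243.5 over the ZM samples, with CV 2 between the GF samples. The share of sox3 in this sum was 34.0%, 30.9% and 24.8% in the CV replicates, 36.8% to 37.4% in GF and 35.1% to 41.1% in ZM, so every CV sample, CV 2 included, lay below every GF and ZM sample. The FPKM of sox3 itself did not separate the groups, with means of 87.7 in CV, 81.9 in GF and 89.2 in ZM. Sox2 made up 16.0%, 11.5% and 16.2% of the sum in CV, 9.46% to 12.7% in GF and 9.85% to 11.3% in ZM, and here CV 2 lay within the GF range. The SoxB2 rows together made up 11.7% to 17.6% of the sum in CV, 10.6% to 11.8% in GF and 10.4% to 12.7% in ZM, so the groups overlapped. Within SoxB2, sox14 made up 3.93% to 7.86% of the sum in CV, 2.12% to 3.09% in GF and 1.70% to 3.35% in ZM. The share of sox21b was 2.44% to 5.26% in CV, 1.48% to 1.71% in GF and 1.91% to 2.32% in ZM. For both, every CV sample lay above every GF and ZM sample. The same held for SOX1 (ENSDARG00000008131), with 2.69% to 5.03% in CV, 2.20% to 2.47% in GF and 1.80% to 2.25% in ZM. It also held for sox19b, with 3.46% to 4.29%, 2.69% to 3.30% and 2.89% to 3.03%.

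**Figure D3:**
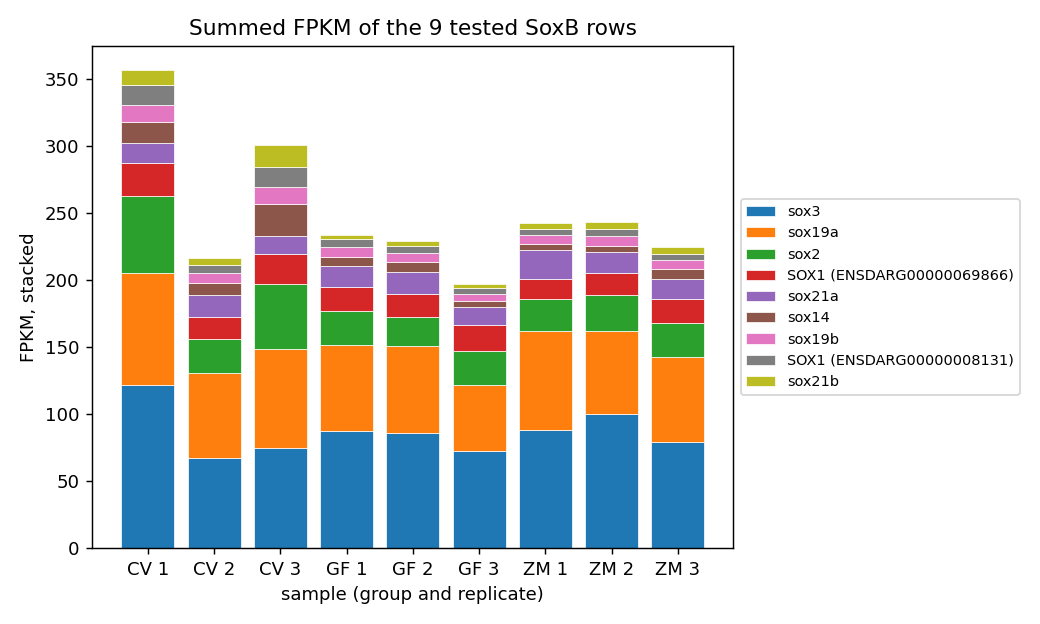
FPKM (vertical axis, linear from 0) of the 9 tested SoxB rows stacked for each of the 9 samples. CV 1 and CV 3 reach 356.9 and 300.4, all other samples lie between 197.2 and 243.5, and sox3 and sox19a form the largest parts of every bar.

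The gene sox2ot (ENSDARG00000095844), a long non-coding RNA whose transcript spans Sox2 in mammals, has a row of its own and did not share the sox2 pattern. It had 4.85, 5.99 and 5.72 FPKM in CV, 7.35, 6.17 and 4.92 in GF and 2.99, 3.30 and 3.79 in ZM. All ZM samples lay below all others, with a log2 fold change of -0.70 in ZM against GF (unadjusted p = 0.00249, limma adjusted p = 0.848), while CV and GF overlapped.

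Profiles most like those of sox2 and sox3 were sought over the 9 samples by the root mean square difference of log2(FPKM + 1), each gene centered on its own mean. For sox2, whose own standard deviation over the 9 samples was 0.478, the nearest genes were FAM193A (0.0860), rbfox2 (0.0977) and KLHL8 (0.102). FAM193A and KLHL8 were weakly expressed, with mean FPKM of 2.62 and 2.88 in CV and 0.914 and 0.915 in GF. At such levels the added 1 shrinks log2 differences, so likeness on this scale is not likeness in fold change. The RNA-binding splicing regulator rbfox2 had 46.3, 23.2 and 47.7 FPKM in CV, 20.3 to 21.5 in GF and 19.3 to 25.1 in ZM, again with CV 2 beside the GF and ZM samples. For sox3, with an own standard deviation of 0.257, the nearest were znrf2a (0.0910), SF3A2 (0.108) and cntrob (0.114). Of these, znrf2a and cntrob were also weakly expressed, with mean FPKM of 1.41 and 1.15 in CV. SF3A2, a subunit of the spliceosome, had 108.3, 77.1 and 79.6 FPKM in CV, 65.9 to 86.6 in GF and 77.5 to 98.8 in ZM.

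SoxB proteins work beside POU factors on DNA, above Notch and proneural genes, and within a larger SOX family, and lists of these genes were described with the same limma fit. The counts are to be read against the 18.0% of all genes that were lower and the 4.70% that were higher in GF against CV. Of 13 tested rows of SOX genes outside group B, 8 were lower and 0 higher in GF against CV at an unadjusted p under 0.05, the median difference in log2 was -0.73, and 0 were called after adjustment. They included SOX5 (-1.17), SOX10 of the neural crest (-1.40) and a SOX9 row (-1.32, ENSDARG00000003293), each with CV 2 as the lowest CV sample. Among the SoxC genes, which are known in young neurons, both tested SOX4 rows were among the 8 lower (-0.73 and -0.75), while sox12 was at -0.28 and the SOX11 rows at 0.26 and 0.12, none of these 3 with an unadjusted p under 0.05. Of 6 tested POU rows, 3 were lower and 0 higher, with a median of -0.56. They were pou3f2a (-1.18), a row listed as POU3F2 (-0.65) and pou3f3a (-0.75), neural partners of SoxB1 proteins, and all 3 overlapped between GF and CV.

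Of 22 tested rows of other progenitor genes, 8 were lower and 0 higher in GF against CV at an unadjusted p under 0.05, with a median log2 fold change of -0.22. The receptor NOTCH3 was at -1.85, the adhesion molecule CDH2 at -1.14 and a NOTCH1 row (ENSDARG00000103554) at -1.67. The radial glia genes GFAP (-0.10) and MSI1 (-0.05) had unadjusted p-values of 0.476 and 0.725. In the same list her4.1 (0.22), her15.1 (0.24) and the rows listed as FABP7 (0.36 and 0.40) were above 0, none with an unadjusted p under 0.05. Of 16 proneural rows, 4 were lower and 1 was higher, with a median of 0.07, EBF2 (-1.12) and 2 rows listed as INSM1 (-1.65 and -1.61) having the smallest p. The higher row was ascl1b (0.60). Its relatives ascl1a (0.58) and neurog1 (0.56) were also above 0, with limma unadjusted p-values of 0.0634 and 0.124. Among 12 rows of GABAergic and V2 interneuron genes, the setting in which sox14 is best known, 4 were lower and 0 higher, with a median of -0.34, led by GATA3 (-1.78), GATA2 (-1.68) and FOXN4 (-1.31). The remaining lower row was SLC32A1 (-1.08, limma unadjusted p = 0.0145). GAD1 (ENSDARG00000027419, 0.28), TAL1 (0.26) and GAD2 (-0.09) were not among the lower rows, with limma unadjusted p-values of 0.151, 0.179 and 0.715. Of 17 rows of postmitotic neuron genes, 3 were lower and 2 higher, with a median of -0.35. The 2 with the smallest p among the lower rows were a STMN2 row (ENSDARG00000070537, -1.68) and ELAVL3 (-1.39). The higher rows were sncb (0.41) and the other STMN2 row (ENSDARG00000033234, 0.39), so the STMN2 rows went opposite ways. The higher STMN2 row was the more abundant, with a mean FPKM of 105.2 in CV and 137.9 in GF, against 45.8 and 12.3. None of the rows in these 4 lists passed an adjusted p of 0.05 in limma.

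In ZM against GF, an unadjusted p under 0.05 was reached by 3.16% of all genes as lower and by 2.55% as higher. It was reached by 0 of 13 other SOX rows and 0 of 6 POU rows, while 2 of 22 progenitor rows were higher. Of the neuron rows, 6 of 17 were lower and 0 higher, with a median log2 fold change of -0.39, while 3 of 16 proneural rows were lower and 1 was higher, and 2 of 12 interneuron rows were lower. The 2 progenitor rows were nes (0.53), the intermediate filament of progenitors, and GMNN (0.51), a replication licensing inhibitor. Cell cycle genes, which dividing progenitors also use, gave other values. Of 16 tested rows of this list, 11 were higher in ZM than in GF at an unadjusted p under 0.05 and 0 lower, with a median log2 fold change of 0.58 beside 0.08 for the SoxB rows, and 0 were called at the adjusted limit of 0.1. In GF against CV, 4 of these 16 rows were lower and 0 higher, among them MCM4 (-1.57), MCM7 (-1.84) and bub1 (-1.80), with a median of -0.14.

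**Figure D4:**
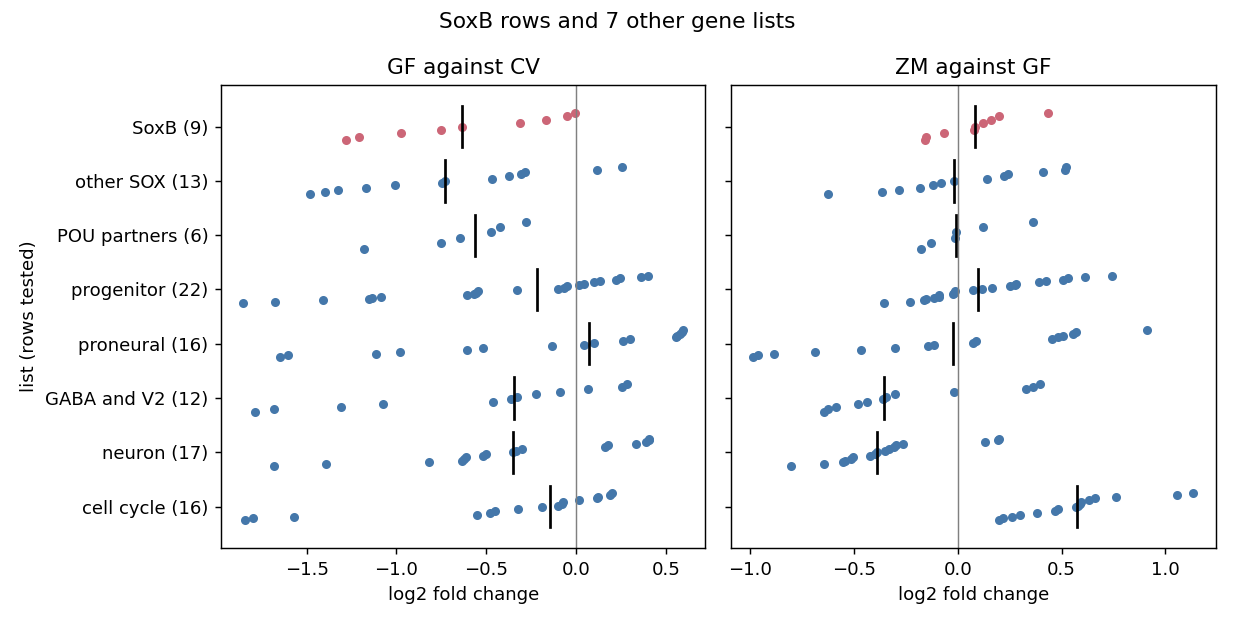
Log2 fold changes (horizontal axes, log2(FPKM + 1) scale) of the tested rows of the SoxB family and of 7 other gene lists in GF against CV (left) and ZM against GF (right). Each point is a row, the black line is the median of the list, and the number of rows stands beside its name. The SoxB median is -0.63 on the left and 0.08 on the right, and the cell cycle median is 0.58 on the right.

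Other tissues of the head that use SoxB genes were followed through their markers, and their part in the SoxB values was not tested. Over all genes, 18.0% were lower and 4.70% higher in GF against CV, so the 2 of 11 lens rows and 2 of 12 ear rows that were lower are near the background, and the sums are over all rows listed, tested or not. Of 11 tested lens rows, 2 were lower (MIP, ENSDARG00000013963, at -0.87 and CRYBB1 at -1.71) and 3 higher in GF than in CV at an unadjusted p under 0.05. The higher rows were CRYBA4 (0.59) and those listed as CRYBA2 (0.63 and 0.56). The other MIP row (ENSDARG00000037285) was at 0.32 and did not reach that p. The summed FPKM of the lens list was 2552 to 2888 in CV, 3007 to 3341 in GF and 1954 to 2395 in ZM. Of 12 tested rows of inner ear, lateral line and placode genes, 2 were lower (PAX2, ENSDARG00000028148, and PAX8) and 0 higher, with summed FPKM over all 15 rows of 91.1 to 131.0 in CV, 76.9 to 97.6 in GF and 73.1 to 77.3 in ZM. Of 12 tested retina rows, 5 were lower and 0 higher, with sums over all 13 rows of 140.8 to 224.1, 135.4 to 174.0 and 113.2 to 151.9 FPKM, among them the photoreceptor factor crx (-1.64). Muscle (7 tested rows), erythrocyte (5) and liver and yolk (5) rows were neither lower nor higher at that p. The summed FPKM was 8658 to 11862 in CV, 5581 to 11393 in GF and 7018 to 9922 in ZM over the 7 muscle rows, and 1041 to 2467, 2010 to 2112 and 2103 to 2518 over all 6 erythrocyte rows. Of the 5 stress rows tested, 3 were lower, and the sum over all 6 was 16.7 to 24.3 FPKM in CV, 13.2 to 21.0 in GF and 14.5 to 20.6 in ZM. Of 5 cartilage rows 2 were lower, and of 6 epidermis rows 2 were lower and 1 was higher.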

How the data were processed

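Per the submitters' processing notes and the study's methods, reads passed FastQC 0.11.8, were aligned by HISAT2 2.1.0 to GRCz11, and were quantified by StringTie 1.3.4d. The authors deposited the resulting FPKM for 32520 Ensembl genes in 9 samples. Their read counts were not used here, which leaves the depth behind each value unknown. The name table gave a symbol for 29201 IDs. Names ending in a or b were also looked up without that letter. Coordinates and sequences were not used here.

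Here limma 3.58.1 in R 4.3.3 (eBayes with trend) was fitted to log2(FPKM + 1). The code was tried on simulated data with the same spread in every group, which does not cover the wider spread of CV seen here. Adjusted p thresholds were 0.05, and 0.1 for ZM against GF. An exact two-sided permutation test of 3 against 3 samples has a smallest p of 0.1, so none is printed. The study calls the 3 samples of a group biological replicates, and neither it nor the labels say whether they came from separate clutches, so p-values measure the spread between these pools. The members, gene lists and likeness rule were chosen with earlier results of these data known. All members are named. From each list up to 3 genes are named, by the smallest p in GF against CV, and other genes named were chosen after their values were seen.

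Deviations of same-numbered samples correlated across genes between GF and ZM (0.409, 0.466 and 0.616). The labels do not state a pairing, and correlations between samples with different numbers were not computed. By whole-profile distance, the ZM sample nearest to each GF sample was the same-numbered one (0.436, 0.354 and 0.305 for replicates 1 to 3). ZM 2 and ZM 3 were likewise nearest, among GF samples, to GF 2 and GF 3. However, ZM 1 was nearer to GF 2 (0.368) than to GF 1 (0.436). Whether the numbers pair the samples is therefore not settled. Between GF and CV the correlations were -0.0580, 0.146 and 0.316, and between ZM and CV they were 0.0624, 0.0605 and 0.488. In some genes replicate 3 stood apart in every group. The FPKM of epcam was 52.1, 60.2 and 223.4 in CV, 69.7, 64.7 and 346.9 in GF and 66.1, 63.5 and 307.4 in ZM. A FABP7 row (ENSDARG00000034650) was lowest in replicate 3 of each group, at 6.54 in CV, 12.1 in GF and 11.2 in ZM. What the replicate 3 samples share was not tested. Alternatives were another pseudocount (0.1), 2 filters, 3 rescalings, a fit of only the 2 groups compared, sample weights, no trend, the replicate block, and each sample left out.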

Additional observations from a re-analysis of the deposited data

How the results depend on the processing

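In GF against CV the count of SoxB rows called was 0 in the limma fit used above, 1 (sox21b) with a pseudocount of 0.1 or with group-specific sample weights, and from 0 to 5 on leaving out single samples, 5 being the count without CV replicate 2. In ZM against CV it ran from 0 to 6 on leaving out single samples, 6 being the count without CV replicate 2. With a replicate block, sox21b kept a log2 fold change of 0.44 in ZM against GF (limma adjusted p = 0.753), and the block changed no call of a SoxB row. Directions turned for small values. In GF against CV, sox3 was 0.0141 and sox21a 0.0554 after median-of-ratios rescaling, sox21a was 0.0468 after quantile normalization, and leaving out single samples gave -0.22 to 0.20 for sox3 and -0.0880 to 0.0734 for sox21a. In ZM against CV, sox3 was -0.0771 with an equal FPKM sum per sample, -0.0280 after quantile normalization and -0.0998 to 0.32 on leaving out single samples. In ZM against GF, leaving out single samples gave -0.175 to 0.00645 for SOX1 (ENSDARG00000008131) and -0.0516 to 0.18 for sox19b. The cause of these changes was not tested. The median log2 fold change over all genes in GF against CV was 0.02 in the limma fit used above, 0.12 after quantile normalization and -0.09 with an equal sum, and that of the SoxB rows was -0.63, -0.53 and -0.75. Genes called over the whole table in GF against CV numbered 1 in the limma fit used above, 858 with a pseudocount of 0.1, 794 with sample weights and 2499 without CV replicate 2. All of these are limma calls on FPKM and not the study's own calls, which came from DESeq2. At an unadjusted p under 0.05, 2639 genes were lower and 1400 higher after median-of-ratios rescaling, and 3331 and 179 with an equal sum. In ZM against CV the lower and higher counts were 2618 and 1103 in the limma fit used above, 2092 and 1828 after median-of-ratios rescaling, and 3424 and 388 with an equal sum, with 1692 and 1788 after quantile normalization.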
